A study of Mus musculus with 18 samples.

Results

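The Kupffer cell marker genes were followed across 6 groups of mouse livers that differed in maternal diet and in age. They are the 10 genes Mpeg1, Timd4, Cd5l, Clec4f, Adgre1, Marco, Vsig4, C1qa, C1qb and C1qc, taken by symbol from the platform annotation, which gave 13 of the 45101 probe sets on the array: 3 for C1qb, 2 for Marco and 1 for each other gene. All 13 passed the filter on low signal, a floor of 57.5 for the geometric mean over arrays, and all 10 genes were among the 11018 tested, each by its probe set of highest mean signal.

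Kupffer cells are the resident macrophages of the liver sinusoid. They are seeded before birth, settle and renew in the liver afterwards, and clear particles, dying cells and complement-coated bacteria from portal blood. Their identity depends on colony-stimulating factor 1 and on Notch, TGF-beta family and oxysterol signals from endothelium, stellate cells and hepatocytes, and on the transcription factors PU.1 and MAF family members that macrophages in general use.

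The livers came from offspring of DUK, an outbred mouse line, whose dams ate isoenergetic diets with 20% protein (control) or 40% protein (high protein, HP) by weight. The 6 groups were HP pregnancy (HP for the pregnant dam, control once she nursed) at postnatal day 150 and at day 21, HP lactation (the reverse order) at both days, and control (control diet throughout) at both days. Each group had 3 Affymetrix Mouse Genome 430 2.0 arrays, 18 in all. Each array carried biotin-labelled cRNA of a liver RNA pool. The labels give conflicting numbers of animals per pool and do not state whether pools share animals, so every p-value here measures the spread between pools, not between litters. Sex was not given.

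On every array the deposited MAS5 signals had a trimmed mean of 500.004 to 500.005, and log2 signals of any 2 arrays correlated at 0.887 to 0.932 over probe sets. Signal of Xist, a transcript of the inactive X chromosome, was at least 7343 on 2 arrays (control day 21 replicate 2 and HP lactation day 150 replicate 4) and at most 93 on the others. The 3′/5′ signal ratio of the Gapdh control probe sets, a readout of RNA integrity and cDNA length, ranged over 1.30 to 1.80 at day 150 and over 0.82 to 0.99 at day 21. It did not overlap between days, so ratio and day cannot be told apart. Calls below are at an adjusted p under 0.05 (limma, moderated test on log2 signal over all 18 arrays, Benjamini-Hochberg over the 11018 genes, two-sided), and mean signals are geometric means.

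As the mean of the 3 diet groups, day 150 livers had more Mpeg1 (2.35-fold), Cd5l (2.11-fold), Clec4f (1.63-fold) and Adgre1 (1.34-fold) than day 21 livers and less Marco (0.517-fold), while Timd4, Vsig4, C1qa, C1qb and C1qc did not pass the test. So 5 of the 10 were called, 4 higher and 1 lower, a share near the 47.6% of all genes tested that were called in that comparison. The median log2 change was 0.25 for the 10 genes and 0.02 for all genes. In whole liver, a change in the number of Kupffer cells and a change in RNA per cell cannot be told apart.

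Mpeg1 encodes perforin-2, a pore-forming protein of phagocytes that attacks engulfed bacteria. At day 150 its signal was 3550.7, 3714.5 and 2922.7 in HP pregnancy, 2485.3, 3678.1 and 2872.8 in HP lactation and 2517, 2286.1 and 3453.3 in control livers. At day 21 it was 1795, 1735.9 and 1322.9 in HP pregnancy, 1080.4, 1242.5 and 1260.3 in HP lactation and 1200.5, 972 and 1139.7 in control livers. Every day 150 array lay above every day 21 array. The log2 difference of day 150 minus day 21 was 1.08 in HP pregnancy, 1.32 in HP lactation and 1.30 in control livers (SE 0.17 each), and 1.23 as their mean (SE 0.10, adjusted p = 1.85e-08).

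Cd5l encodes AIM, a secreted scavenger-receptor-like protein that circulates bound to IgM. Its signal at day 150 was 5929.6, 5776.1 and 6195.5 in HP pregnancy, 6126.8, 6964.4 and 4042.9 in HP lactation and 5271.8, 5294.7 and 7273.4 in control livers. At day 21 it was 3777.8, 4019.9 and 2643 in HP pregnancy, 2181.6, 2435.4 and 2636.4 in HP lactation and 2505.1, 2735.6 and 2308 in control livers. The lowest day 150 array, at 4042.9, was only just above the highest day 21 array, at 4019.9. The log2 differences were 0.80, 1.21 and 1.23 in HP pregnancy, HP lactation and control livers (SE 0.18 each), with a mean of 1.08 (SE 0.11).

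Clec4f encodes a galactose-binding C-type lectin that marks Kupffer cells in mouse. At day 150 it gave 2759.8, 3043.5 and 2783.5 in HP pregnancy, 2061.7, 3121 and 1969.2 in HP lactation and 2128.3, 2540 and 2708 in control livers. At day 21 it gave 1884.1, 1733.1 and 1681.3 in HP pregnancy, 1118.2, 1336.7 and 1507 in HP lactation and 1888.7, 1707.1 and 1349.2 in control livers. The days again did not overlap, with 1969.2 as the lowest value at day 150 and 1888.7 as the highest at day 21. The log2 differences were 0.70, 0.83 and 0.58 in HP pregnancy, HP lactation and control livers (SE 0.17 each). The control difference, with an adjusted p of 0.0223 in limma, was no longer called without control day 21 replicate 3 or without control day 150 replicate 2 or 3, with log2 differences of 0.45 to 0.69 over the arrays left out in turn. Mpeg1, Cd5l and Clec4f were the 3 marker genes with all 9 arrays of day 150 above all 9 of day 21, as were 4.92% of all genes tested.

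**Figure D1:**
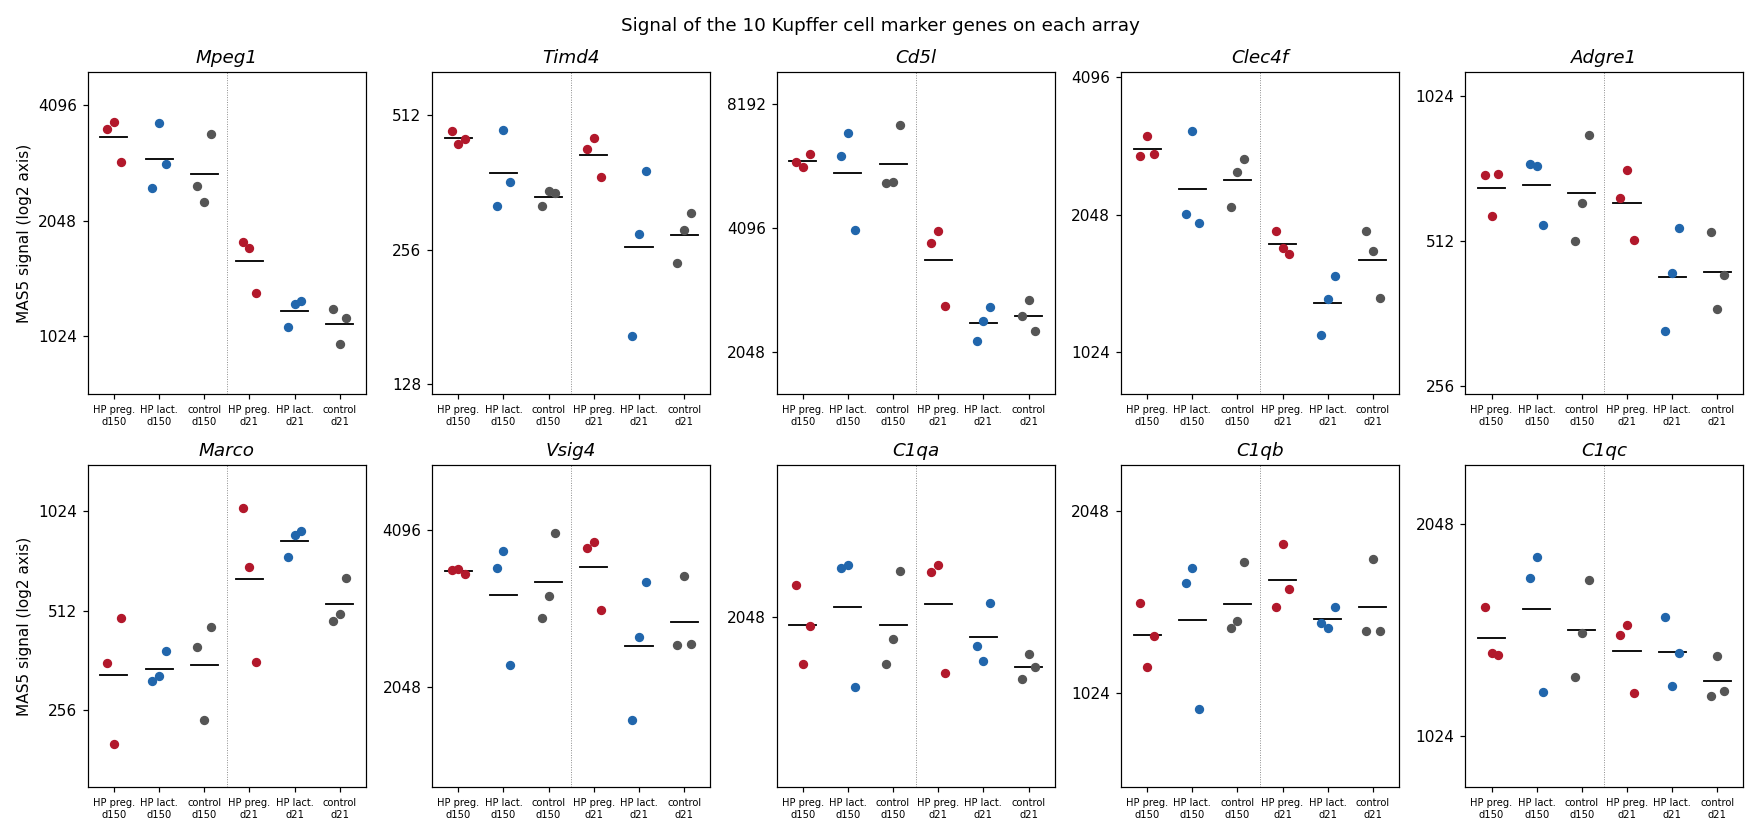
MAS5 signal (log2 axis) of each marker gene on each array, with 3 points per group in replicate order and a bar at the geometric mean; HP pregnancy is red, HP lactation blue and control grey, and the dotted line parts day 150 (left) from day 21 (right). Mpeg1, Cd5l and Clec4f are higher on all 9 arrays of day 150, while Marco is mostly lower there and the C1q genes overlap.

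Promoter windows, 250 bases before to 50 bases from the annotated start on (RefSeq, GRCm38.p6), were found for 8 of the 10 genes, not for C1qa and Adgre1. The windows of the 3 genes whose signals separated the days and of Marco, which went the other way, are printed to show what flanks their starts: Mpeg1 at chr19:12460520-12460819 (plus strand), Cd5l at chr3:87357631-87357930 (plus strand), Clec4f at chr6:83656067-83656366 (minus strand) and Marco at chr1:120504975-120505274 (minus strand). Capitals mark GAGGAA, the core of a PU.1 site, and TGCTGA, a MAF half-site, each on either strand (TTCCTC and TCAGCA when reversed). The 2 motifs did not overlap each other in any of the 8 windows.
Mpeg1: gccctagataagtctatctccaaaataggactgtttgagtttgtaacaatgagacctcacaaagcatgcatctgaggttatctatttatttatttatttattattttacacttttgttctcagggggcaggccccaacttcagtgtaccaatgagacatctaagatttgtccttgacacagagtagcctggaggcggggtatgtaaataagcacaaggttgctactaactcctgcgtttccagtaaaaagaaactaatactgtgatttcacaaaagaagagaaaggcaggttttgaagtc
Cd5l: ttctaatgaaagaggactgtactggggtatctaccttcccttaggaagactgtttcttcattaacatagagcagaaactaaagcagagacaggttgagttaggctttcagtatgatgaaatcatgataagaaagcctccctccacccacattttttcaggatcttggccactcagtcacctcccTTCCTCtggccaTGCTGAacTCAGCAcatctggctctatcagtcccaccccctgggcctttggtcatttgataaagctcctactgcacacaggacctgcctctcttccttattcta
Clec4f: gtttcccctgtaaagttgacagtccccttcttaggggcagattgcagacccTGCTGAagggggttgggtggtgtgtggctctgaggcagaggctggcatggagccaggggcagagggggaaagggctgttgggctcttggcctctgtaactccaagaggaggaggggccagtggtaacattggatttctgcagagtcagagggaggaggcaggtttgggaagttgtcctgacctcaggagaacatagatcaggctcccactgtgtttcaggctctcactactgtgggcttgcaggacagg
Marco: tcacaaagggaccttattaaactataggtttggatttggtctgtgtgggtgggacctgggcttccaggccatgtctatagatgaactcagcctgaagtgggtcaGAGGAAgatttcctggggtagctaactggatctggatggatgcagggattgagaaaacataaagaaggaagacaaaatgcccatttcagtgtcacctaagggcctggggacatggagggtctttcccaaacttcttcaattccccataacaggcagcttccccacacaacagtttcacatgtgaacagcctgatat
The PU.1 core was in 5 of the 8 windows (Marco, Cd5l, C1qb, C1qc and Vsig4) and in 28.3% of all 32851 promoter windows. The MAF half-site was in 5 of the 8 (Cd5l, C1qb, Clec4f, Timd4 and Vsig4) and in 19.5% of all windows. The Mpeg1 window held neither. In Cd5l, 2 half-sites face each other as TGCTGAACTCAGCA, beginning 54 bases before the start. Facing half-sites with 1 or 2 bases between them (TGCTGANTCAGCA or TGCTGANNTCAGCA, a pattern searched for after the Cd5l sequence was seen) were in 4 of the 32851 windows, or 0.0122%. A match is a run of letters, not a measured binding site.

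Adgre1 encodes F4/80, the adhesion receptor used to stain mouse macrophages. At day 150 its signal was 703.4, 576.2 and 707.2 in HP pregnancy, 739.7, 732.4 and 552.9 in HP lactation and 512.8, 615.2 and 851.5 in control livers. At day 21 it was 629.5, 719.3 and 514.9 in HP pregnancy, 332.9, 439.4 and 546.5 in HP lactation and 534.5, 370.4 and 436.6 in control livers. Arrays of the 2 days overlapped in HP pregnancy and in control livers. In HP lactation livers day 150 lay above day 21 without overlap, as for 20% of all genes. The mean log2 change over diets was 0.43 (SE 0.12, limma adjusted p = 0.0078). Within diets it was called in HP lactation livers at 0.64 (SE 0.21, adjusted p = 0.0341), a call lost under 8 of 30 other settings.

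Timd4 encodes TIM-4, a phosphatidylserine receptor that marks Kupffer cells of embryonic origin. At day 150 it read 471.5, 441.3 and 453 in HP pregnancy, 319.7, 473.8 and 363.5 in HP lactation and 320.2, 345.7 and 342.9 in control livers. At day 21 it read 429.8, 455.8 and 371.3 in HP pregnancy, 164.1, 277.4 and 384.5 in HP lactation and 239.3, 283.4 and 309.2 in control livers. Only in control livers did the 2 days not overlap, by a small gap, with day 150 above as for 18.6% of all genes. The mean log2 change over diets was 0.32 (95% interval 0.05 to 0.60) with an adjusted p of 0.0517 in limma.

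Marco, a collagen-like scavenger receptor for bacteria and particles, was the one member to fall. Its signal at day 150 was 355.6, 202.3 and 486.7 in HP pregnancy, 314, 325.2 and 387.2 in HP lactation and 396.9, 238.8 and 457.6 in control livers. At day 21 it was 1040.8, 691.4 and 358.8 in HP pregnancy, 742.4, 867.4 and 890.5 in HP lactation and 477, 501 and 640.1 in control livers. Day 150 lay below day 21 without overlap in HP lactation and in control livers, as for 17.2% and 16.6% of all genes. By contrast, the 3 HP pregnancy arrays of day 21 spread widely. The log2 difference was -1.29 in HP lactation (SE 0.33, adjusted p = 0.0081) and -0.96 in HP pregnancy (SE 0.33, adjusted p = 0.0414). In control livers it was -0.61 (SE 0.33, adjusted p = 0.224), which did not pass. The HP pregnancy call was lost under 12 of 31 other settings, among them quantile normalization and leaving out either of 2 of its day 21 arrays or either of 2 of its day 150 arrays. Its second probe set, of low signal, ranged over 7.9 to 77.3 at day 150 and 89.9 to 263.2 at day 21, with a mean log2 change of -2.51 (SE 0.47, adjusted p = 0.000275 over all kept probe sets).

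Vsig4 and the C1q genes, the complement arm of the list, did not pass the test between days. Vsig4 encodes CRIg, the receptor by which Kupffer cells take up C3b-coated bacteria, and read 2258.3 to 4051.5 (median 3442.5) over the 9 arrays of day 150 and 1771.5 to 3884.2 (median 2875.3) over the 9 of day 21. C1qa, C1qb and C1qc, neighbours on chromosome 4, encode the 3 chains of C1q, which starts the classical complement pathway. C1qa spanned 1662.3 to 2392.6 at day 150 and 1704.2 to 2392.6 at day 21, and C1qc spanned 1181.6 to 1839.1 at day 150 and 1167.9 to 1511.1 at day 21. The days overlapped for each of these genes. Mean log2 changes over diets were 0.18 for Vsig4 (95% interval -0.08 to 0.45), 0.07 for C1qa (-0.12 to 0.27) and 0.17 for C1qc (-0.03 to 0.36).

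The 3 C1qb probe sets disagreed on age. The brightest, used in the test, spanned 965.7 to 1686.2 at day 150 and 1295.9 to 1808 at day 21, with a mean log2 change of -0.10 (SE 0.10, adjusted p = 0.475). The other 2, of a design that can pick up related transcripts, spanned 766.3 to 1544.4 and 570.7 to 1098.6 at day 150, against 570 to 1298.4 and 432.6 to 757.3 at day 21. Their mean log2 changes were 0.38 (SE 0.14, adjusted p = 0.0344) and 0.44 (SE 0.13, adjusted p = 0.0109) over all kept probe sets, so no direction is given for C1qb.

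**Figure D2:**
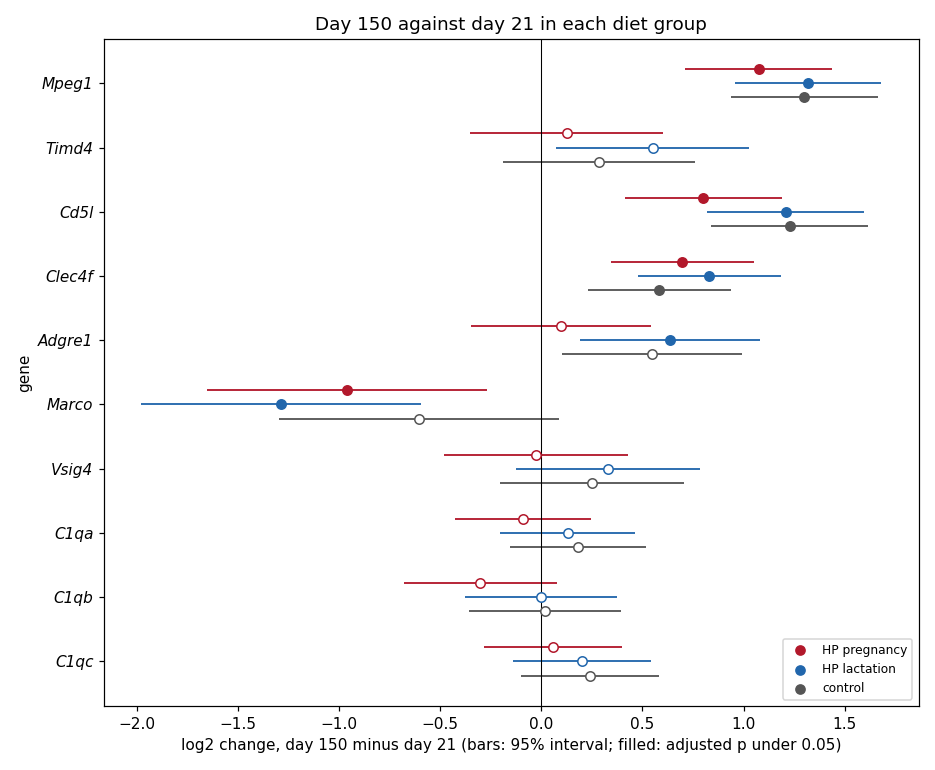
Log2 change of each marker gene, day 150 minus day 21, in HP pregnancy (red), HP lactation (blue) and control (grey) livers, with 95% intervals; filled points passed an adjusted p of 0.05. Mpeg1, Cd5l and Clec4f lie to the right in all 3 diets, at 0.58 to 1.32, and Marco lies to the left.

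By diet group, 4 of the 10 marker genes were called between days in HP pregnancy livers (Mpeg1, Cd5l and Clec4f higher, Marco lower), with 23.6% of all genes called. In HP lactation livers 5 were called (Mpeg1, Cd5l, Clec4f and Adgre1 higher, Marco lower), with 25.7% of all genes called. In control livers 3 were called, all higher (Mpeg1, Cd5l and Clec4f), with 17.8% of all genes called. The test for any difference among the 6 groups called 6 of the 10, where it called 41.5% of all genes: Mpeg1 (adjusted p = 9.81e-07), Cd5l (1.15e-05), Clec4f (0.000247), Marco (0.00934), Timd4 (0.0311) and Adgre1 (0.0363). A fit with the Gapdh 3′/5′ ratio as a covariate left 1 marker gene called between days in control livers (Mpeg1, log2 change 1.56, adjusted p = 0.0188) and 0 in the other day comparisons. In that fit the mean log2 change over diets was 1.58 for Mpeg1 (SE 0.36, adjusted p = 0.0856) and 0.82 for Cd5l (SE 0.39, adjusted p = 0.501). It was 0.20 for Clec4f (SE 0.34), 0.14 for Adgre1 (SE 0.45) and -0.37 for Marco (SE 0.69), each of which moved by over 1.5 times from the values above. The fit also cut the calls over all genes, to 91 in control livers and 37 for the mean over diets; ratio and day rise together.

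Because the C1q genes shared the arrays, the other members could be set against them within each array. The log2 signal minus the mean of C1qa, C1qb and C1qc, centred over the 18 arrays, ran from 0.10 to 1.09 at day 150 and from -1.05 to -0.23 at day 21 for Mpeg1. For Cd5l it ran from 0.36 to 0.70 at day 150 and from -0.86 to -0.18 at day 21. Neither gene overlapped between days on this scale, as neither did by signal alone. The share of all genes that part the days on this scale was not computed. Clec4f (medians 0.34 at day 150 and -0.39 at day 21) and Marco (medians -0.54 at day 150 and 0.61 at day 21) overlapped. Vsig4 had medians of 0.03 at day 150 and 0.02 at day 21. These ratios describe unequal change within the list and would shift with the 2 other C1qb probe sets.

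**Figure D3:**
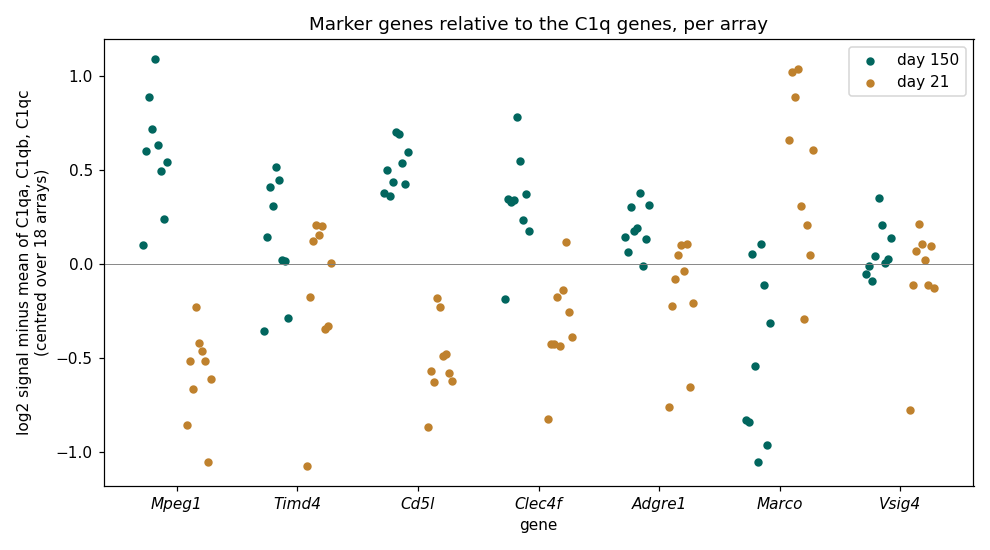
Log2 signal of 7 marker genes minus the mean of the 3 C1q genes on the same array, centred over the 18 arrays, for the 9 arrays of day 150 (green, left) and the 9 of day 21 (brown, right). Mpeg1 and Cd5l part the 2 days fully, as they do by signal alone, Marco mostly the other way round, and Vsig4 not at all.

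Of 22 further Kupffer cell genes, 11 were called between days as the mean over diets, 7 higher and 4 lower at day 150 (median log2 change 0.19), a share near the 47.6% of all genes. Cd207, the lectin langerin, rose by 1.56 (SE 0.14), Wfdc17, a secreted antiprotease-like protein, by 1.29 (SE 0.11) and Hmox1, heme oxygenase-1, by 0.54 (SE 0.11), while Hpgd, which breaks down prostaglandins, fell by 0.57 (SE 0.12). The Hpgd change was not called as the mean of its probe sets and was 0.093 with the Gapdh ratio as a covariate, where its direction turned. Of 25 general macrophage genes tested, 11 rose and 0 fell (median 0.37). The share called in either direction was again near that of all genes, where 2793 rose and 2452 fell. Among the 11 were Ptprc (CD45, 0.83), Lyz2 (lysozyme, 0.63), Msr1 (a scavenger receptor, 0.76) and Lgals3 (galectin-3, 0.76). Msr1 and Marco, related scavenger receptors, thus changed in opposite directions.

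Of 10 classical complement partners of the C1q chains, 4 rose and 1 fell. The shares called in this list and in the lists of phosphatidylserine and niche genes lay near the 47.6% of all genes, and nothing is read from them. C2, a serine protease of the C3 convertase, rose by 1.06 (SE 0.09) and C1s1, a protease downstream of C1q, by 0.76 (SE 0.08). Serping1, the C1 inhibitor, rose by 0.33 (SE 0.08), whereas Cd93 fell by 0.73 (SE 0.13). Around Timd4, 3 of 10 phosphatidylserine receptors and bridging proteins rose and 3 fell. The bridges Gas6 and Pros1 rose by 1.32 (SE 0.15) and 0.62 (SE 0.11), and Mfge8, another bridge, and Scarb1, a lipoprotein receptor, fell by 0.67 (SE 0.09) and 0.87 (SE 0.07). Of 12 niche genes 3 rose and 2 fell: the receptor Notch2 rose by 0.60 (SE 0.10), its ligand Dll1 fell by 0.74 (SE 0.12) and the BMP family ligand Gdf2 fell by 0.61 (SE 0.13). Abca1, a cholesterol exporter, was called higher at 0.23, but lost its call under 17 of 29 other settings. As the mean of its probe sets it was called lower (log2 change -0.32, limma adjusted p = 0.0452), so no direction is given for Abca1.

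**Figure D4:**
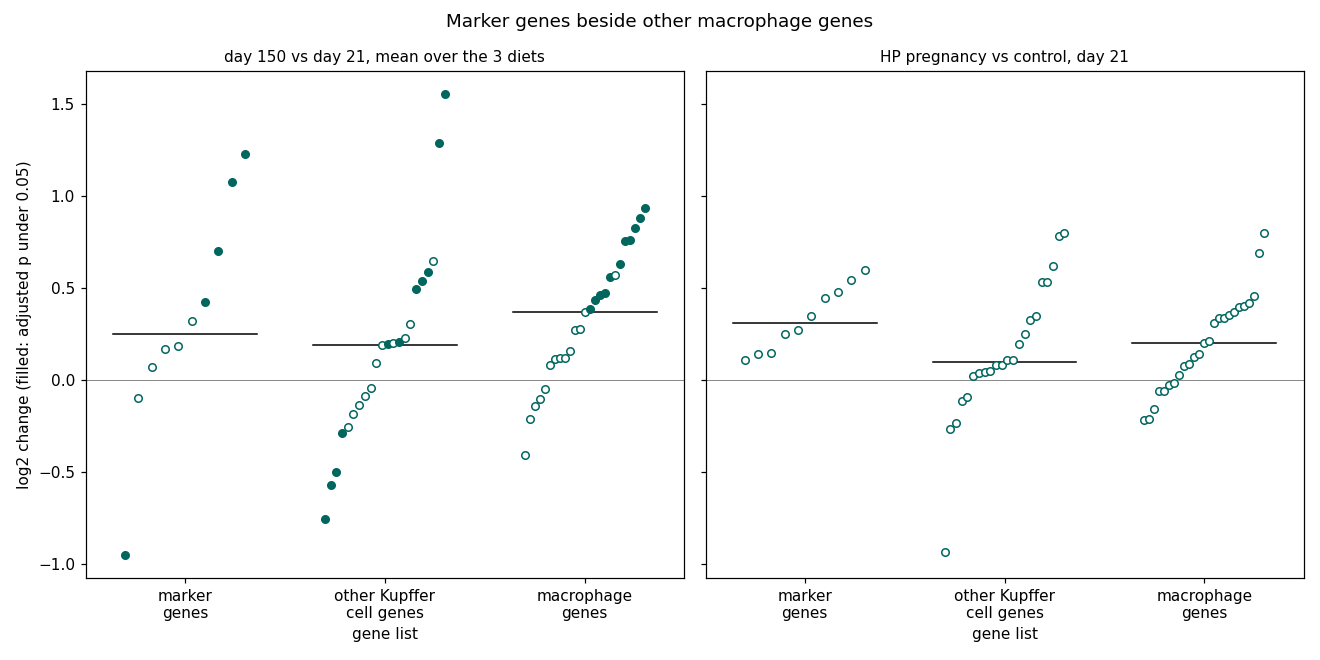
Log2 changes of the 10 marker genes, 22 other Kupffer cell genes and 25 macrophage genes, one point per gene with the list's median as a bar, for day 150 minus day 21 over the 3 diets (left) and HP pregnancy minus control at day 21 (right); filled points passed an adjusted p of 0.05. Called genes lie on both sides of 0 on the left in the first 2 lists, and no gene is called on the right.

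Markers of other cells were read in the same comparison, with 47.6% of all genes called (2793 higher and 2452 lower). Of 6 dendritic cell genes tested 4 rose, the MHC class II genes H2-Aa (1.502), H2-Eb1 (1.27), Cd74 (1.02) and H2-Ab1 (0.75), which Kupffer cells express too. The list's summed signal was 1807.4 to 3556.6 over the day 150 groups and 898.7 to 1476 over the day 21 groups. Of 6 monocyte genes 3 rose and 1 fell, with sums of 1697.1 to 2670.7 at day 150 and 1876.3 to 2715.6 at day 21. Of 5 B cell genes 3 rose, and their sums were 626.8 to 1563.4 at day 150 and 181 to 625.6 at day 21. Of 11 stellate cell genes 0 rose and 7 fell (median log2 change -0.91), with sums of 16228 to 25144.1 at day 150 and 24492.6 to 35311.6 at day 21. Of 12 endothelial genes 4 rose and 4 fell (sums 16826.8 to 26025 at day 150 and 16452 to 23825.4 at day 21), and of 11 hepatocyte genes 3 rose and 1 fell (sums 287171 to 478181 at day 150 and 248180 to 363269 at day 21). Of 4 neutrophil genes 0 were called, of 4 megakaryocyte genes 3 fell, of 3 erythroid genes 1 rose and 1 fell, of 3 cholangiocyte genes 0 were called, and the 1 T and NK cell gene that passed the filter, Gzma, fell. Some genes that passed the filter had low signal in a group, with means of 15.5 for Col1a1 in control livers of day 150 and 28.0 for Ms4a1 in control livers of day 21. The part of these lists in the marker genes' changes was not tested.

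The second question was whether maternal high protein altered these genes. At day 21, all 10 marker genes had higher mean signal in HP pregnancy than in control livers, as had 51.3% of all genes. The median log2 difference was 0.31, against 0.01 for all genes. Scaling to equal 75th percentiles moved the median of all genes by -0.07 in this comparison, and no marker gene turned direction on that scale. In limma 0 of the 10 passed the test, with 0% of all genes called in that comparison. An unadjusted p under 0.05 was reached by 4 of the 10, and by 1100 of all 11018 genes. These 4 were Mpeg1 (log2 difference 0.54, SE 0.17), Timd4 (0.60, SE 0.23), Cd5l (0.45, SE 0.18) and Adgre1 (0.48, SE 0.21). Their adjusted p-values began at 0.319. From the signals given above, the 3 HP pregnancy arrays lay above the 3 control arrays for Mpeg1 and Timd4, as they did for 10.5% of all genes. The other 8 marker genes overlapped between the 2 groups, with log2 differences of 0.11 for Clec4f, 0.25 for Marco, 0.35 for Vsig4 and 0.14 to 0.27 for the 3 C1q genes.

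The difference was carried unevenly by the 3 HP pregnancy arrays. Vsig4, for example, read 3795.3, 3884.2 and 2875.3 in HP pregnancy livers and 2470.8, 3343.4 and 2477.8 in control livers. Of the 10 marker genes, 3 were below their own mean over the 18 arrays on HP pregnancy replicate 1, 2 on replicate 2 and 8 on replicate 3. Without replicate 3 the median log2 difference from control was 0.55, and without replicate 1 or replicate 2 it was 0.26 or 0.23, with 0 marker genes called each time. The summed signal of the 10 was 14200.4 to 18910.6 in HP pregnancy and 12906.1 to 14787.2 in control livers, which overlap.

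Other lists in the same comparison had 0 called genes too. Of the macrophage genes 18 of 25 were higher in HP pregnancy livers (median 0.20) and of the other Kupffer cell genes 17 of 22 (median 0.10). Of the endothelial genes 10 of 12 were higher (summed signal 19646.6 to 23825.4 in HP pregnancy and 17813.9 to 19455.1 in control livers). Of the hepatocyte genes 0 of 11 were higher (median -0.28, summed signal 258922 to 302289 in HP pregnancy and 322980 to 363269 in control livers). Neither pair of ranges overlapped. Among single genes, 10.5% lay above and 7.74% below control without overlap, and no such share is given for sums. The part of these lists in the marker genes' values was not tested. In HP lactation livers of day 21 the hepatocyte sum, 248180 to 307046, also lay below that of control livers, as did 8.71% of single genes. Of the classical complement partners 3 of 10 were higher (median -0.20).

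Against HP lactation livers of the same day, HP pregnancy livers had higher mean signal of 9 of the 10 marker genes, all but Marco (log2 difference -0.38, SE 0.33). Of all genes, 51.8% were higher. For C1qb the probe set tested gave 0.22 and its 2 other probe sets -0.12 and -0.13, and C1qc, at 0.0040, was below 0 under 4 of 31 other settings. The median was 0.43, against 0.01 for all genes, and 0 of the 10 were called by limma, with 1.28% of all genes called. An unadjusted p under 0.05 was reached by 6 of the 10, and by 1646 of all 11018 genes. The 6 were Timd4 (0.69, SE 0.23), Cd5l (0.51, SE 0.18), Vsig4 (0.51, SE 0.22), Adgre1 (0.51, SE 0.21), Mpeg1 (0.43, SE 0.17) and Clec4f (0.43, SE 0.17), with adjusted p-values from 0.147 up. Arrays of HP pregnancy lay above those of HP lactation without overlap for Mpeg1, Cd5l and Clec4f, and for 12.2% of all genes. Without HP lactation replicate 3, the Timd4 difference was 0.97 with an adjusted p of 0.0184. Cd207, of the other Kupffer cell genes, was called higher in HP pregnancy livers (log2 difference 1.15, SE 0.25, adjusted p = 0.0284), 1 of the 22. That call was lost under 6 of 31 other settings, among them leaving out any 1 of the 3 HP pregnancy arrays or HP lactation replicate 1 or 2, with log2 differences of 0.93 to 1.26. The endothelial sum was 19646.6 to 23825.4 in HP pregnancy and 16452 to 18075.4 in HP lactation livers, and the hepatocyte sums overlapped. This comparison uses the same HP pregnancy arrays as the one with control.

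HP lactation and control livers of day 21 gave no called marker gene (0 of 10, and 0 with an unadjusted p under 0.05), with 0.172% of all genes called by limma. Mean signals, by the probe sets tested, were higher in HP lactation livers for 4 of the 10, with a median log2 difference of -0.05. C1qb counts as lower here, but its 2 other probe sets were higher. Their mean signals were 942.3 and 628.8 in HP lactation and 652.1 and 503.9 in control livers. Scaling the arrays to equal 75th percentiles moved the median of all genes by -0.12 in this comparison, and on that scale 3 of the 10 were higher, with a median of -0.17. Marco had the largest difference of the 10, 0.64 (95% interval -0.06 to 1.33), and its 3 HP lactation arrays, 742.4, 867.4 and 890.5, lay above its control arrays, 477, 501 and 640.1, as for 7.43% of all genes. Clec4f differed by -0.32 (95% interval -0.67 to 0.04), with 1118.2, 1336.7 and 1507 in HP lactation and 1888.7, 1707.1 and 1349.2 in control livers, which overlap. The hepatocyte sum was 248180 to 307046 in HP lactation and 322980 to 363269 in control livers, without overlap. Among single genes, 8.71% lay below control in this way.

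**Figure D5:**
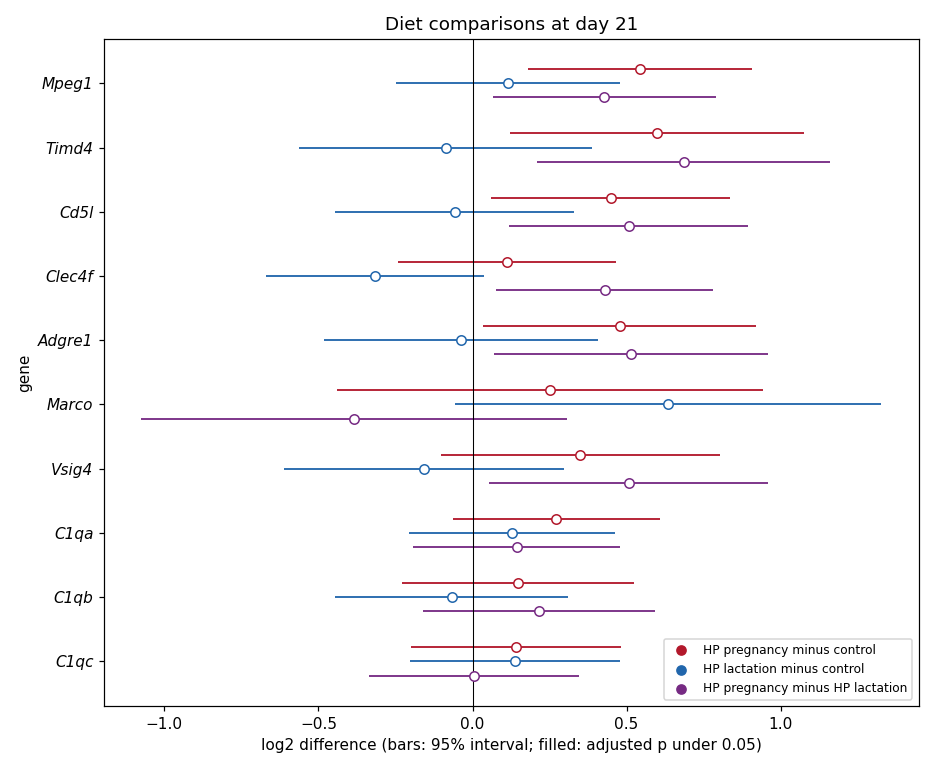
Log2 differences of each marker gene at day 21 for HP pregnancy minus control (red), HP lactation minus control (blue) and HP pregnancy minus HP lactation (purple), with 95% intervals; no point is filled, as none passed an adjusted p of 0.05. All 10 red points lie right of 0, from 0.11 to 0.60.

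At day 150, HP pregnancy and control livers gave 0 of 10 called, 0 with an unadjusted p under 0.05 and a median log2 difference of 0.03, where limma called 2.63% of all genes. Timd4 (0.44, 95% interval -0.04 to 0.91) and Clec4f (0.23, -0.13 to 0.58) had HP pregnancy arrays above all control arrays, as had 15.1% of all genes. Timd4 was the one marker gene whose HP pregnancy arrays lay above its control arrays at both days. Its difference was called at neither day, and the share of all genes above at both days was not computed. Mertk, another receptor for dying cells, was called higher in HP pregnancy livers at day 150 (log2 difference 0.63, SE 0.15, adjusted p = 0.0347), as were the niche signalling genes Rbpj (0.51, SE 0.13, adjusted p = 0.0449) and Smad4 (0.41, SE 0.11, adjusted p = 0.0488). The Mertk call was lost under 9 of 31 other settings, among them leaving out any 1 of the 3 control arrays or HP pregnancy replicate 2 or 3 (log2 differences 0.53 to 0.74). The Rbpj call was lost under 20 of the 31 (0.36 to 0.57) and the Smad4 call under 21 (0.15 to 0.44).

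HP lactation and control livers of day 150 gave 0 of 10 called by limma and 0 with an unadjusted p under 0.05, where 0.00908% of all genes were called. The median was 0.00 on the log2 scale, and by the probe sets tested the marker genes' differences ran from -0.09 (C1qb) to 0.18 (Timd4). The 2 other C1qb probe sets went the other way. Their mean signals were 1188.8 and 798.5 in HP lactation and 882.5 and 679.2 in control livers, so no direction is given for C1qb. HP pregnancy against HP lactation livers at day 150 likewise gave 0 of 10 called and 0 with an unadjusted p under 0.05, where 0.717% of all genes were called, with Clec4f at 0.29 (95% interval -0.06 to 0.65) as the largest difference.

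The change of the diet response between days was tested directly. For HP pregnancy, the day 150 minus day 21 change of the difference from control was called for 0 of the 10 marker genes, with 0.0182% of all genes called by limma and 0 marker genes with an unadjusted p under 0.05. It was negative for 9 of the 10, with a median of -0.27, and ran to -0.45 for Adgre1 (95% interval -1.07 to 0.18) and -0.43 for Cd5l (-0.98 to 0.12). For HP lactation it was also called for 0 of the 10, with 0.0182% of all genes called and 0 at an unadjusted p under 0.05, a median of 0.00, and -0.68 for Marco (95% interval -1.66 to 0.30).

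The marker genes varied together from array to array. Over the 18 arrays, Pearson correlations between their log2 signals were positive for 37 of 45 pairs, with a median of 0.53, from 0.94 for Mpeg1 and Cd5l to -0.71 for Clec4f and Marco. After each gene was centred within its group, which takes out age and diet, 44 of 45 pairs were positive with a median of 0.46, and the highest was 0.90 for Cd5l and C1qa. The C1q chains C1qa and C1qc correlated at 0.85 before and 0.88 after centring. These points share arrays and their scaling, and the correlations of other gene pairs are not given beside them, so the correlations are descriptions.

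Outside the list, the genes most like the mean of the 10 (each scaled by its SD) over the 18 arrays were Ctss (r = 0.90), Csf1r (0.88), Ifi202b (0.88), Ms4a6d (0.87) and Clec7a (0.87). Ctss encodes the lysosomal protease cathepsin S and Csf1r the receptor for colony-stimulating factor 1. Within groups they were Clec4n (0.91), Ifi202b (0.89), Slc11a1 (0.87), Lst1 (0.85) and Ctss (0.85), where Clec4n encodes the lectin dectin-2 and Slc11a1 a metal transporter of phagosomes. Ctss and Ifi202b stood in both lists.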

How the data were processed

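The 18 liver RNA pools were measured on 1-colour arrays. The deposited signal intensities are linear MAS5 values (GCOS 1.4, per the submitters' processing notes). They were analysed here as log2(signal), with an offset of 0 and no rescaling. Of 45101 probe sets, 64 controls were left out; 34945 named 1 gene symbol, 932 several and 9160 none, per the platform annotation, and 34741 of the first matched RefSeq by gene ID. Probe sets at or above the median mean log2 signal were kept (22519). A gene was its kept single-symbol probe set of highest mean signal. Group means were fitted with limma 3.58.1 (R 4.3.3), eBayes with trend, 12 residual and 6.47 prior degrees of freedom. The median SE of a 2-group log2 difference was 0.19. The number of arrays limits the precision. Figures used matplotlib 3.10.9. The members and lists were chosen with earlier results of these data known. Named list genes are up to 4 per list and comparison with the smallest p. The alternatives are in the closing section.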

Additional observations from a re-analysis of the deposited data

How the results depend on the processing

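Values were recomputed under 31 settings: other filters, offsets, normalizations and probe set rules, array weights, fewer arrays, a replicate block and the Gapdh 3′/5′ ratio as a covariate. With that ratio, the called marker genes numbered 1 in control livers between days, 0 in HP pregnancy, 0 in HP lactation, 0 as the mean over diets and 0 in the test among 6 groups, and Hpgd changed by 0.093 over diets. Leaving out each array in turn gave 2 to 4 called marker genes between days in control livers, 3 to 4 in HP pregnancy, 4 to 6 in HP lactation, 5 to 6 as the mean over diets and 4 to 6 in the test among 6 groups; HP pregnancy against HP lactation at day 21 gave 0 to 1, and the other comparisons 0.

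Some directions turned. That of Hpgd over diets did with the Gapdh ratio, as given above. In HP pregnancy against control at day 21, leaving out arrays in turn gave -0.026 to 0.22 for Clec4f (below 0 without control replicate 3) and -0.10 to 0.67 for Marco (below 0 without HP pregnancy replicate 1); Marco was -0.000296 with array weights. In HP pregnancy against HP lactation at day 21 it gave -0.74 to 0.030 for Marco (above 0 without HP pregnancy replicate 3) and -0.076 to 0.10 for C1qc (below 0 without HP pregnancy replicate 1 or 2 or HP lactation replicate 2). C1qc was -0.024 with the Gapdh ratio, and C1qb was -0.012 as the mean of its probe sets. Abca1 over diets was -0.32 as the mean of its probe sets, where it was called lower. The cause was not tested.

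Replicate numbers gave no sign of pairing the samples. Same-numbered arrays of different groups had deviations that correlated at a median of -0.02, with 1 of 30 pairs over 0.1. Pairs with different numbers had a median of 0.01, with 7 of 60 over 0.1. This check cannot exclude that samples were paired. The replicate block gave 3 called marker genes between days in control livers, 3 in HP pregnancy livers, where Marco was lost, and 0 in the diet comparisons it could fit; HP lactation at day 150 shares no numbers and had no such fit.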
